A study of Homo sapiens with 19 samples.

Results

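The genes described here encode the collagens, laminins and integrins, with 8 further matrix proteins, measured by RNA-seq in HepG2, a human liver cancer cell line. A gene was included if its full symbol was COL, digits, A, digits, or LAMA, LAMB or LAMC with a digit, or ITGA or ITGB with digits and an optional letter, or was FN1, NID1, NID2, HSPG2, AGRN, THBS1, SPARC or FBLN1. This rule took 84 of the 34825 gene symbols in each of the 2 deposited tables: 44 collagen chains, 12 laminin chains, 12 integrin alpha chains, 8 integrin beta chains and the 8 other matrix proteins. The rule used no measured value.

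The study transfected the cells with 50 nM siRNA and harvested them 72 h later. In the first experiment 3 libraries received a non-targeting siRNA (NTG), 3 received siINO80#1 and 3 received siINO80#2, which are separate siRNAs against INO80, the ATPase of the INO80 chromatin remodelling complex. In the second, cells were placed in DMSO or in 1 µM EPZ-6438, which blocks EZH2, the enzyme that methylates histone H3 at lysine 27, from 3 days before transfection, and received NTG or a siRNA against MCRS1, a subunit of the same remodelling complex. That experiment has 2 DMSO NTG, 3 DMSO siMCRS1, 3 EPZ-6438 NTG and 2 EPZ-6438 siMCRS1 libraries. The libraries are all HepG2, so each group is a treatment of 1 transformed hepatocyte line. The labels do not say that the libraries of a group came from separate cultures, so the p-values measure only the spread between these libraries.

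The basement membrane is a thin sheet of matrix on which epithelial cells sit. Laminins, trimers of an alpha, a beta and a gamma chain, and type IV collagen each form a network in it, and nidogens and perlecan (HSPG2) link the networks. Fibrillar collagens and fibronectin (FN1) make up the looser interstitial matrix, in liver made largely by stellate cells, while hepatocytes secrete plasma fibronectin. Integrins are receptors made of an alpha and a beta chain that bind these proteins outside the cell and join them to the actin cytoskeleton through talin.

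The reads recovered per library numbered 17093574 to 25369547 for the INO80 siRNAs and 26038505 to 47397233 for the drug libraries, and 3 reads correspond to a normalized count of 2.30 to 3.58 and of 2.13 to 4.30, respectively. INO80 was 1264 ± 82.2 (SD, n = 3) normalized counts with NTG, 608 ± 31.3 with siINO80#1 and 460 ± 21.7 with siINO80#2. MCRS1 was 1283 and 1577 in the DMSO NTG libraries and 114 ± 28.5 (SD, n = 3) with siMCRS1 in DMSO, and it fell by 3.66 on the log2 scale in each medium. Hepatocyte markers, of which all 10 listed were tested, summed to 735203 to 906067 normalized counts with NTG, 835095 to 1032071 with siINO80#1 and 588452 to 803431 with siINO80#2. Of the 10, 6 fell and 0 rose with siINO80#2, where 28.4% of all tested genes fell. With siINO80#1, 1 fell and 0 rose, where 20.8% of all tested genes fell. Summed markers of fibroblasts and stellate cells, 8 genes, were at 715 to 1362, 539 to 681 and 463 to 846 in the same order, of which ACTA2 alone had means of 879, 266 and 417, with DES and THY1 at 0 in the NTG libraries, and the part of either list in the member results was not tested. In these bulk libraries, fewer cells of a type and less RNA per cell cannot be told apart.

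Of the 84 genes, 51 had a mean normalized count of at least 10 in the INO80 experiment and were tested there among 14034 genes, and 53 were tested among 14312 in the drug experiment, 49 of them in both. The 33 and 31 untested members had means of 0.124 to 9.43 and of 0 to 8.85. Among them were several chains that assemble with tested members. With NTG, COL4A1 had a mean of 0.66, COL4A3 of 7.43, COL4A4 of 1.09, COL5A1 of 3.73, COL5A3 of 3.34, COL3A1 of 3.50, ITGA9 of 9.79, ITGB6 of 0.69 and NID2 of 0.32 normalized counts in the INO80 experiment. No tested member of the INO80 experiment had an NTG mean under 10, and 1 of the drug experiment, COL3A1, had such a DMSO NTG mean.

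Per kilobase of transcript, which allows genes to be compared, fibronectin stood far above the rest in NTG cells, at 27512 ± 1374 (SD, n = 3) normalized counts per kb. ITGB1, the beta chain shared by most matrix-binding integrins, followed at 5384, then its alpha partners ITGA6 (1595), which binds laminin, and ITGA2 (1258), which binds collagen. The laminin chains LAMB1 and LAMC1 were at 1048 and 1023, and the fibronectin and vitronectin receptor chain ITGB5 was at 666. NID1 (nidogen 1) was 17th of the members, at 243 per kb with NTG, and moved to rank 8 with siINO80#1 (1299 per kb) and rank 7 with siINO80#2 (1250 per kb).

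**Figure D1:**
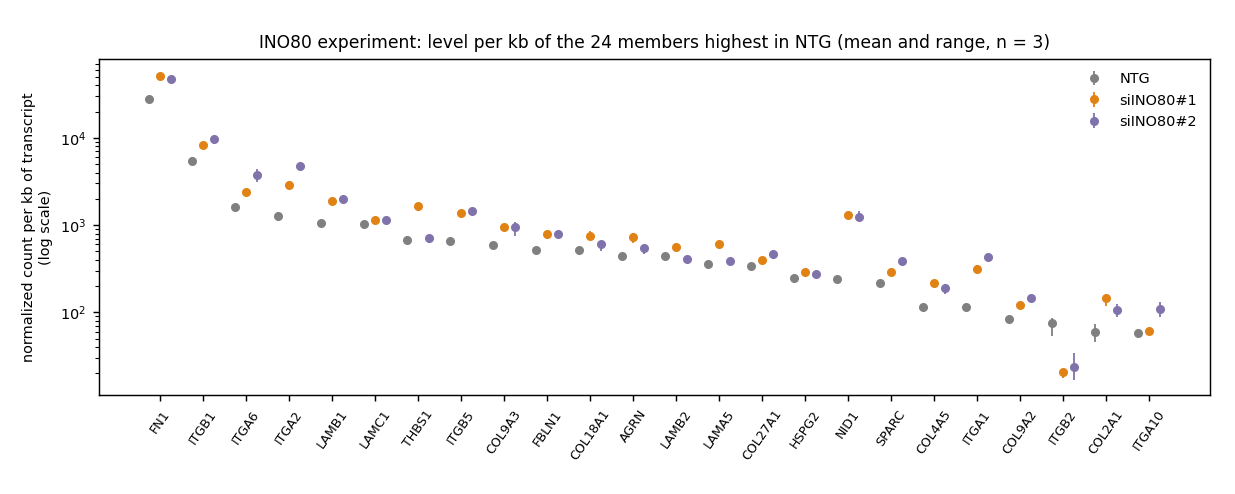
Level of the 24 members highest with NTG, as normalized counts per kb of transcript on a log vertical axis, in NTG, siINO80#1 and siINO80#2 cells. Points are means of 3 libraries and bars span the lowest to the highest library; FN1 stands above all others in each group, and NID1 lies well above its NTG level with both siRNAs.

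Both INO80 siRNAs raised a large number of these genes and lowered few. With siINO80#1, 30 of the 51 tested members (58.8%) were higher and 3 lower at an adjusted p under 0.05, where 20.7% of all tested genes were higher and 20.8% lower. With siINO80#2, 29 were higher and 2 lower, beside 26.6% and 28.4% of all genes. The median log2 fold change of the tested members was 0.56 with siINO80#1 and 0.70 with siINO80#2, and that of all genes was 0.00 with each. With siINO80#1 the members that rose were 7 of 7 other matrix proteins, 4 of 6 integrin beta chains, 11 of 20 collagens, 4 of 8 integrin alpha chains and 4 of 10 laminin chains. With siINO80#2 these counts were 4 of 7, 4 of 6, 10 of 20, 7 of 8 and 4 of 10. siINO80#2 library C stood apart from libraries A and B of its group, with a chi-square over its degrees of freedom of 84.3 and 121 where A against B gave 18.8 and the pairs of the other groups of this experiment at most 13.2. Without it, 29 members were higher and 1 lower with siINO80#2 than with NTG, beside 26.2% and 27.7% of all genes. Against siINO80#1, 9 members were then higher and 6 lower with siINO80#2, beside 9.2% and 12% of all genes. The siRNAs share their NTG libraries, so their values are set side by side and an increase with both is not a repeat of an independent comparison.

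**Figure D2:**
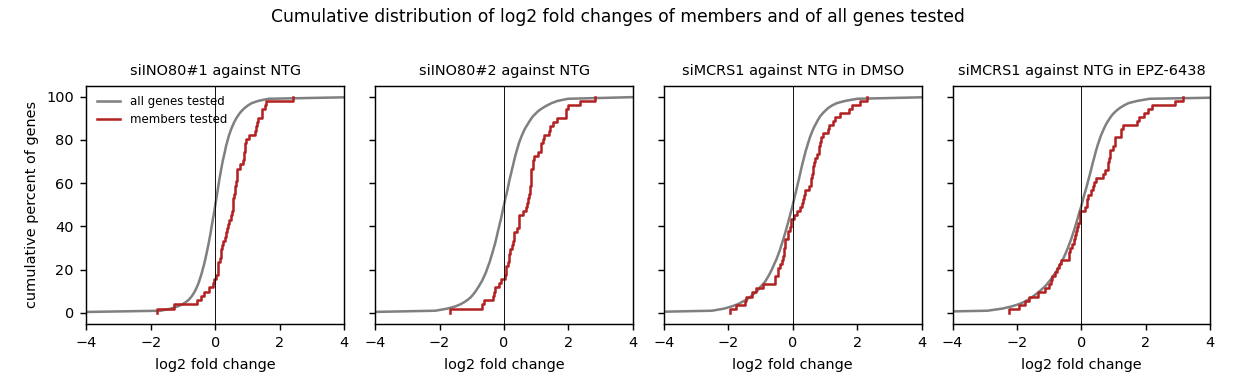
Cumulative percent of tested members and of all tested genes against log2 fold change, for siINO80#1 and siINO80#2 (51 members) and for siMCRS1 in DMSO and in EPZ-6438 (53 members). The member curve lies to the right of the curve of all genes over most of its length with both INO80 siRNAs (medians 0.56 and 0.70 against 0.00) and by less with siMCRS1 (0.29 in DMSO, 0.17 in EPZ-6438).

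Among the matrix glycoproteins, NID1, which bridges laminin and type IV collagen, had the largest rise. It was at 1319, 1422 and 1485 normalized counts in the NTG libraries, at 7728, 6912 and 7934 with siINO80#1 and at 6692, 6618 and 8407 with siINO80#2. Every knockdown library was more than 4-fold above the highest NTG library. The means were 5.34-fold and 5.14-fold those of NTG (log2 fold change 2.42, SE 0.10, adjusted p = 1.9e-07, and 2.35, SE 0.10, adjusted p = 1.5e-07). FN1 was at 243272, 228700 and 220510 with NTG, at 432259, 401411 and 445819 with siINO80#1 and at 379943, 369192 and 429688 with siINO80#2. All 6 knockdown libraries were above NTG and the siRNAs overlapped each other, and it rose with siINO80#1 (0.89, SE 0.16, adjusted p = 0.0014) and with siINO80#2 (0.77, SE 0.16, adjusted p = 0.0023), although the second call was lost under quantile normalization (0.29, adjusted p = 0.153).

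FBLN1 (fibulin 1, a ligand of fibronectin) and SPARC, a collagen-binding protein, also rose with each siRNA. FBLN1 was at 1460 to 1580 normalized counts with NTG, at 2201 to 2489 with siINO80#1 and at 2171 to 2358 with siINO80#2 (log2 fold changes 0.61 and 0.58). SPARC was at 708 to 792 with NTG, 975 to 1023 with siINO80#1 and 1289 to 1405 with siINO80#2 (log2 fold changes 0.41 and 0.83). The proteoglycan agrin (AGRN) and the secreted glycoprotein thrombospondin 1 (THBS1) passed the test with siINO80#1 and not with siINO80#2. AGRN was at 3141 to 3372 with NTG, 4531 to 6001 with siINO80#1 and 3456 to 4497 with siINO80#2 (0.69, adjusted p = 8e-04, and 0.27, adjusted p = 0.072). THBS1 was at 5819, 5253 and 4848 normalized counts with NTG, at 13840, 11304 and 13472 with siINO80#1, and at 6014, 4909 and 5769 with siINO80#2. The siINO80#1 libraries were all above the others, whereas the siINO80#2 and NTG libraries overlapped (log2 fold changes 1.28, SE 0.11, adjusted p = 1e-05, and 0.07, SE 0.11, adjusted p = 0.63). HSPG2 passed the test with siINO80#1 (0.25, adjusted p = 0.045), but 1 NTG library, at 3961 normalized counts, was above the lowest siINO80#1 library, at 3911, and the call was lost under 10 of the 19 alternatives, to a log2 fold change of 0.16 without NTG library C.

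Of the laminin chains, the beta chain LAMB1 rose with both siRNAs. It was at 6026, 6202 and 5538 normalized counts with NTG, 10866, 10490 and 11024 with siINO80#1, and 11939, 10509 and 11118 with siINO80#2. The knockdown libraries were all above NTG and overlapped each other (0.87, SE 0.07, adjusted p = 1.2e-05, and 0.92, SE 0.07, adjusted p = 3.8e-06). LAMC1, the gamma chain that most laminins share, was at 7827 to 8561 with NTG and at 9039 to 9502 and 8347 to 9858 with the siRNAs, and did not pass (0.18, adjusted p = 0.085, and 0.16, adjusted p = 0.11). LAMB3, a chain of epithelial laminin, was low, at 27.8 to 37 with NTG, 48.9 to 82.3 with siINO80#1 and 78.1 to 95.4 with siINO80#2, and rose with each (0.93 and 1.38). LAMA5 and LAMB2, chains of the laminins of mature basement membranes, passed the test as higher with siINO80#1. The LAMB2 call (0.34, adjusted p = 0.015) was lost without NTG library A (0.31, adjusted p = 0.0572), NTG library B or siINO80#1 library C (0.24, adjusted p = 0.0659). LAMA5 was at 3994, 4081 and 4236 with NTG, 6472, 6734 and 7806 with siINO80#1, and 4687, 4616 and 3995 with siINO80#2, where it overlapped NTG (0.77, SE 0.09, adjusted p = 7.6e-05, and 0.11, adjusted p = 0.33). LAMA3 passed the test as lower with siINO80#1 (log2 fold change −0.44, adjusted p = 0.046) but lost the call under 11 of the 19 alternatives, for example with a value of −0.32 without siINO80#1 library B.

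**Figure D3:**
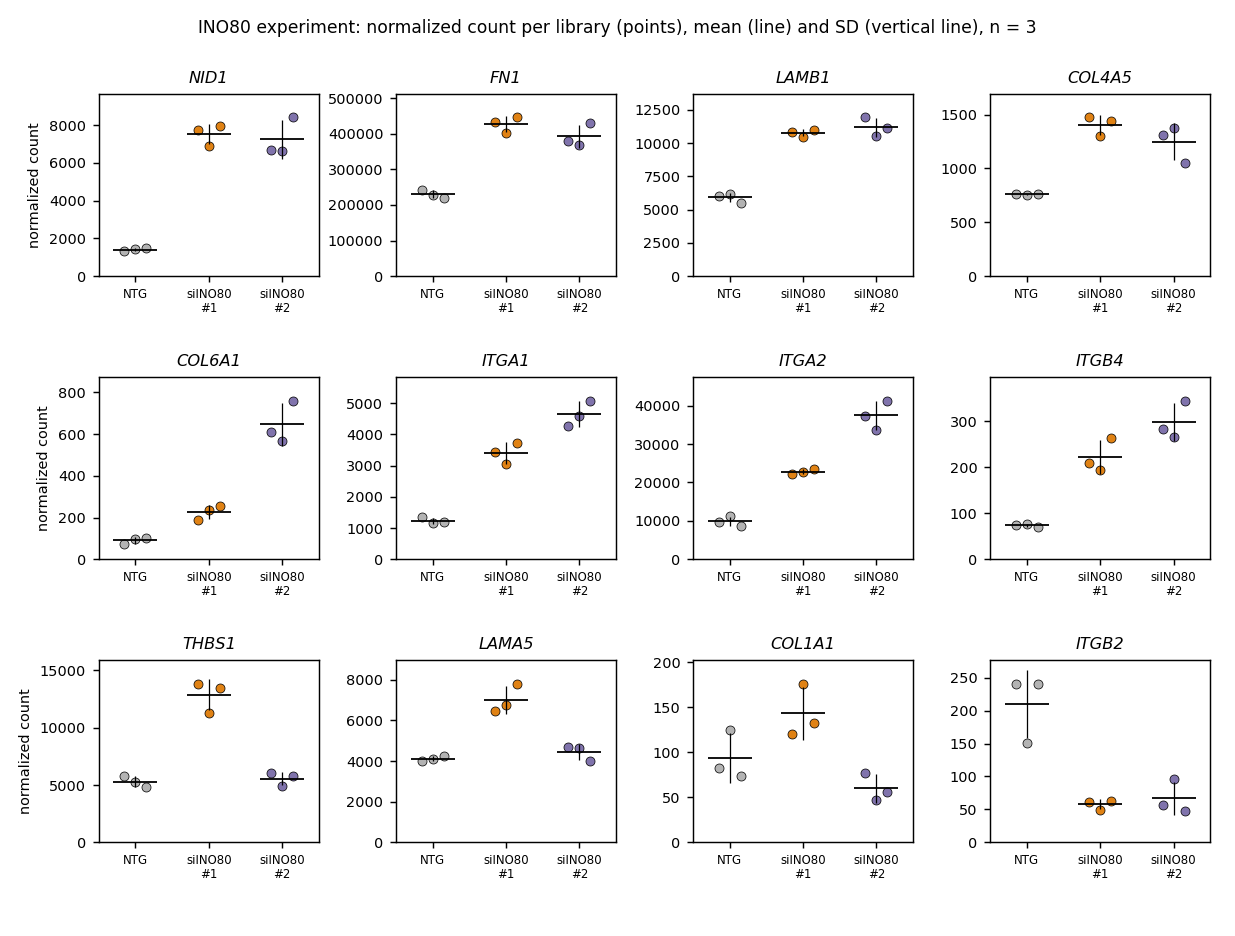
Normalized counts of 12 members in each library of the INO80 experiment, 1 panel per gene with a linear axis from 0; points are libraries, horizontal lines group means and vertical lines the SD (n = 3). NID1 and LAMB1 are above NTG in all 6 knockdown libraries, THBS1 and LAMA5 are above NTG in the 3 siINO80#1 libraries, COL6A1 and ITGA2 are highest with siINO80#2, and ITGB2 is below NTG in all 6 knockdown libraries.

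COL4A5 and COL4A6, type IV chains that assemble together in basement membranes, were both higher with each siRNA. COL4A5 was at 762, 757 and 762 normalized counts with NTG, 1474, 1299 and 1436 with siINO80#1, and 1311, 1379 and 1053 with siINO80#2. COL4A6 was at 193, 167 and 153, then 368, 316 and 306, then 417, 407 and 313. Neither gene had a knockdown library that reached down to NTG, and their log2 fold changes were 0.88 (SE 0.10, adjusted p = 6.5e-05) and 0.70 (SE 0.10, adjusted p = 0.00015) for COL4A5 and 0.95 (SE 0.14, adjusted p = 0.00035) and 1.14 (SE 0.14, adjusted p = 5.4e-05) for COL4A6. The other type IV pairs were low in the INO80 experiment, where COL4A1 and the COL4A3 and COL4A4 pair were below the minimum for testing. COL4A2 was at 23.4, 13.3 and 14.4 with NTG and rose with siINO80#2 to 44.9, 39.8 and 35.9 (1.23, adjusted p = 0.0059). It did not pass the test with siINO80#1 (0.39, adjusted p = 0.34).

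COL4A5 and COL4A6 lie head to head on chromosome X, and their starts in the RefSeq annotation of GRCh38.p14 are 379 bases apart, so at these starts the sequence before 1 gene is partly also the sequence before the other. COL4A5 is on the plus strand at chrX:108439838-108697545 and COL4A6 on the minus strand at chrX:108155614-108439458. Their windows, from 250 bases before to 50 after the start, are chrX:108439588-108439887 (plus strand) and chrX:108439409-108439708 (minus strand) and share 121 bases. RefSeq gives COL4A6 a second start, whose window, chrX:108438373-108438672 (minus strand), shares no base with that of COL4A5, and which start these cells use was not measured. These windows are shown since both genes rose with each siRNA, beside the windows of the member with the largest rise with siINO80#1 (NID1, minus strand, chr1:236065041-236065340) and of the member with the highest level (FN1, minus strand, chr2:215436019-215436318). Each is given 5′ to 3′ on its gene's strand, and capitals mark every GGGCGG (the GC box) and CCAAT on either strand.
COL4A5: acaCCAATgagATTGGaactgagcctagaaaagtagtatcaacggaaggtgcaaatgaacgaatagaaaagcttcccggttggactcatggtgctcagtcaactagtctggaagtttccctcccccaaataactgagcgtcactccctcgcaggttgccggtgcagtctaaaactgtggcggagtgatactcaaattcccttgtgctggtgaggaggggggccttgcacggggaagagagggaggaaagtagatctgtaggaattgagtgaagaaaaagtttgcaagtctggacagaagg
COL4A6: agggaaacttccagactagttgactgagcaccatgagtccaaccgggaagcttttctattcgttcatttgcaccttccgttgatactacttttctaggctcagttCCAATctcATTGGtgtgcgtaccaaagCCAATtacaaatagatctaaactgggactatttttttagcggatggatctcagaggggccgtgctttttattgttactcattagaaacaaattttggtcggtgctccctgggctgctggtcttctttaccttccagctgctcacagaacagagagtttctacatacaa
COL4A6 second start: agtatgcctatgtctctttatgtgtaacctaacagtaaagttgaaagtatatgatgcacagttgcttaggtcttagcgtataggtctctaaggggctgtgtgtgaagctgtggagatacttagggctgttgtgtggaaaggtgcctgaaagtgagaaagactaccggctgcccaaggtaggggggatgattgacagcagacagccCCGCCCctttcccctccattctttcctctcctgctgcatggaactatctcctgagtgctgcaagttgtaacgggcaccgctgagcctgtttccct
NID1: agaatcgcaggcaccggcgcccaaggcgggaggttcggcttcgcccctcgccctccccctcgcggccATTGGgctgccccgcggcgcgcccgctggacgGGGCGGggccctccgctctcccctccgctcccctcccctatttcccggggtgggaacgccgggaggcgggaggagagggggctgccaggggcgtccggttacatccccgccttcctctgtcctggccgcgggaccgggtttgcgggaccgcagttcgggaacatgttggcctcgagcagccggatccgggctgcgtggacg
FN1: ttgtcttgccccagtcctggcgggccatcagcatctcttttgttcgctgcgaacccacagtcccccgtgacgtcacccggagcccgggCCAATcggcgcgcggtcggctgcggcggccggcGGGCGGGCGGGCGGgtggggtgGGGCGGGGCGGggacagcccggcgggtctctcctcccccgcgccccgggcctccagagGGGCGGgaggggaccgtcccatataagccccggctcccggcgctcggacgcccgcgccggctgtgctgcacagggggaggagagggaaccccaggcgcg

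The COL4A5 window had no GC box and 2 CCAAT matches, the first COL4A6 window no GC box and 3, and the second COL4A6 window 1 GC box and no CCAAT match. All 3 were less GC-rich (49.3%, 43.7% and 50.0%) than the median of all windows (58.7%). The NID1 window held 1 GC box and 1 CCAAT match at a GC content of 74.7%, and the FN1 window held 6 GC boxes, some of which overlap, and 1 CCAAT match at 76.7%. RefSeq gave windows for 62 of the 84 members, 80 in all. Of these 60.0% held GGGCGG (45.0% of all 35116 windows) and 30.0% held CCAAT (34.6%), and shares for the other motifs searched on both strands were 12.5% for TATAAA (11.5%), 5.0% for TGANTCA (7.7%), 2.5% for AANATGGC (6.6%) and 11.2% for GGAATG (14.0%). The NID1 gene spans chr1:235975830-236065090 and FN1 chr2:215360865-215436068. A match describes letters in these windows only.

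COL6A1, a chain of the beaded filaments around cells, had the largest rise of any tested member with siINO80#2. It was at 71.4, 98.5 and 103 normalized counts with NTG, 191, 237 and 255 with siINO80#1, and 610, 569 and 761 with siINO80#2. The 3 groups did not overlap (1.32, SE 0.17, adjusted p = 0.00016, and 2.82, SE 0.17, adjusted p = 5.8e-07). Its neighbour and partner chain COL6A2, 93063 bases away on chromosome 21, and the remaining partner chain COL6A3 were at 8.64 to 28 and at 27.1 to 118 normalized counts over the 9 libraries, and neither was called with either siRNA. COL26A1 was at 124, 115 and 111, then 314, 328 and 324, then 243, 265 and 223 (1.46, adjusted p = 3.4e-06, and 1.05, adjusted p = 1.2e-05). COL7A1, the anchoring-fibril collagen of skin, was at 31.8 to 65.3 with NTG and at 140 to 151 and 121 to 163 with the siRNAs (1.54 and 1.53). COL2A1, COL9A2 and COL9A3, chains of cartilage fibrils, rose with each siRNA, by log2 fold changes of 1.28 and 0.82, of 0.54 and 0.80, and of 0.68 and 0.67. COL18A1, the basement membrane collagen that releases endostatin, was at 2713 to 3022 with NTG, 3689 to 4604 with siINO80#1 and 2707 to 3571 with siINO80#2, and passed with siINO80#1 only (0.51, adjusted p = 0.005, against 0.19, adjusted p = 0.19).

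COL1A1, the main fibrillar collagen of scar tissue, was at 82.5, 125 and 73.9 normalized counts with NTG, 120, 176 and 133 with siINO80#1, and 77.4, 46.7 and 55.7 with siINO80#2. NTG overlapped both knockdown groups, which did not overlap each other. Its log2 fold change was 0.62 (SE 0.25, adjusted p = 0.065) with siINO80#1 and −0.63 (SE 0.25, adjusted p = 0.049) with siINO80#2, and the latter call was lost under 13 of the 19 alternatives, with a value of −0.41 without NTG library B. COL1A2, its partner chain, was near the minimum at 6.12 to 24 normalized counts over the 9 libraries, with overlapping groups, and was not called (−0.09, adjusted p = 0.91, and 0.07, adjusted p = 0.92).

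Of the integrin chains, 4 of 8 alpha and 4 of 6 beta chains rose with siINO80#1, beside 20.7% of all genes. With siINO80#2, 7 of 8 and 4 of 6 rose, beside 26.6% of all genes. ITGA1, a collagen receptor chain, was at 1342, 1169 and 1196 normalized counts with NTG, 3440, 3038 and 3730 with siINO80#1, and 4267, 4584 and 5086 with siINO80#2 (1.46, SE 0.10, adjusted p = 2.4e-06, and 1.91, SE 0.10, adjusted p = 2.9e-07). ITGA2, which also binds collagen and lies 30142 bases from ITGA1 on chromosome 5, was at 9770, 11178 and 8649, then 22252, 22849 and 23456, then 37422, 33650 and 41335 (1.22, SE 0.11, adjusted p = 1.5e-05, and 1.93, SE 0.11, adjusted p = 4.2e-07). For each gene the 3 groups stood apart, in the order NTG, siINO80#1, siINO80#2. The laminin receptor chain ITGA6 was at 8585 to 10272, 13541 to 13981 and 18189 to 25527 (0.57, adjusted p = 0.0028, and 1.22, adjusted p = 1.1e-05), with the same separation. ITGA5, the classical fibronectin receptor chain, was at 132, 220 and 175, then 203, 299 and 266, then 508, 401 and 492. Its siINO80#1 libraries overlapped NTG and that call (0.56, adjusted p = 0.042) was lost under 7 of the 19 alternatives, with 0.37 without NTG library A, whereas the siINO80#2 libraries were above all others (1.43, adjusted p = 0.00012).

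The common partner ITGB1 was at 18949, 22562 and 18812 normalized counts with NTG, 30085, 31898 and 31137 with siINO80#1, and 37568, 32023 and 38812 with siINO80#2. Both knockdown groups were above NTG throughout (0.63, SE 0.11, adjusted p = 8e-04, and 0.85, SE 0.11, adjusted p = 6.2e-05). ITGB5 was at 2747 to 3134, 5808 to 6435 and 5882 to 6906 (1.04 and 1.13). ITGB4, the hemidesmosome chain that pairs with ITGA6, was lower in level, at 74.7, 77 and 69.1, then 209, 194 and 264, then 284, 265 and 345 (1.57, SE 0.15, adjusted p = 1.9e-05, and 1.99, SE 0.15, adjusted p = 1.9e-06). ITGB8, which activates latent TGF-beta, was at 22.6 to 25.7, 36.7 to 52.5 and 69.7 to 80.3 (0.92 and 1.64). None of these beta chains had a knockdown library inside the NTG range.

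ITGB2, the beta chain of leukocyte integrins, fell. It was at 240, 151 and 241 normalized counts with NTG, 62, 49.6 and 63 with siINO80#1, and 57.2, 95.7 and 47.2 with siINO80#2. All 6 knockdown libraries were below the lowest NTG library (−1.81, SE 0.27, adjusted p = 0.00036, and −1.68, SE 0.27, adjusted p = 0.00034). The summed leukocyte markers, 5 genes of which CD3E was at 0 in all 9 libraries, were at 37008 to 40992 with NTG, 39254 to 45316 with siINO80#1 and 49207 to 56253 with siINO80#2, so the siINO80#1 range overlapped NTG and the siINO80#2 range was above it. That holds for the sum, which follows its most abundant genes. By gene, 1 of the 4 tested was higher and 0 lower with each siRNA, beside 20.7% and 26.6% of all genes higher. The median log2 fold changes of these 4 were 0.03 and 0.20. ITGB3, at 30.1, 25.7 and 25.9 with NTG, was at 13.1, 7.93 and 11.4 with siINO80#1 (−1.28, adjusted p = 0.0038) and at 17.9, 19.1 and 13.2 with siINO80#2, which did not pass (−0.68, adjusted p = 0.059).

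The direct test of siINO80#2 against siINO80#1 shows where the siRNAs differed. Of the 51 tested members 11 were higher and 7 lower with siINO80#2, beside 9.48% and 12.6% of all genes, and the member median was 0.17 (−0.01 for all genes). Integrin alpha chains made up 6 of the 11, and no alpha chain was lower. They were ITGA1 (0.45), ITGA2 (0.71), ITGA6 (0.64), ITGA5 (0.88), ITGA3 (0.75, SE 0.13) and ITGA10 (0.79). ITGA3, a laminin receptor chain, was at 177, 228 and 166 normalized counts with NTG, 184, 219 and 197 with siINO80#1, and 333, 349 and 328 with siINO80#2. ITGA10, a collagen receptor chain, was at 302, 333 and 259, then 292, 323 and 337, then 529, 682 and 455. In both genes every siINO80#2 library was above every other library, while siINO80#1 and NTG overlapped (0.83 and 0.88 against NTG with siINO80#2, and 0.08 and 0.10 with siINO80#1).

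In the other direction, THBS1 was lower with siINO80#2 than with siINO80#1 (−1.21, SE 0.11, adjusted p = 9.9e-05), as were LAMA5 (−0.66, adjusted p = 0.00084), LAMB2 (−0.45), AGRN (−0.42), COL26A1 (−0.40), COL16A1 (−0.87) and COL1A1 (−1.26, SE 0.25, adjusted p = 0.0055). The AGRN and COL26A1 differences lost their calls when single libraries were left out, with AGRN at −0.33 without siINO80#1 library C and COL26A1 at −0.39 without siINO80#1 library B. COL6A1 differed most, at 1.50 higher with siINO80#2 (SE 0.17, adjusted p = 0.00036). The remaining INO80 mRNA also differed in level between the siRNAs (608 and 460 normalized counts), and the part of that difference in these results was not tested.

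**Figure D4:**
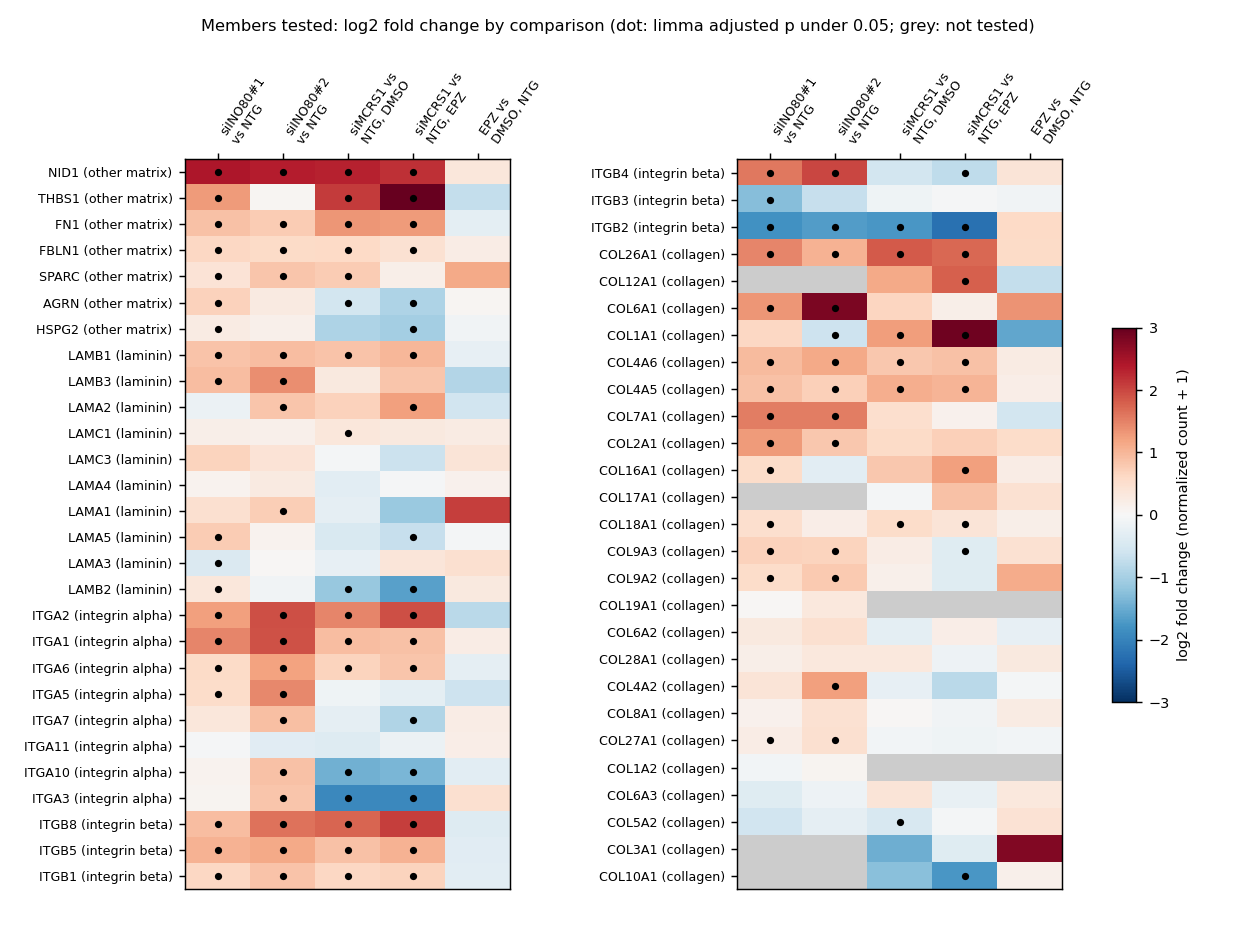
Log2 fold change of the 55 members tested in at least 1 experiment, by family, in 5 comparisons: siINO80#1 and siINO80#2 against NTG, siMCRS1 against NTG in DMSO and in EPZ-6438, and EPZ-6438 against DMSO in NTG cells. A dot marks an adjusted p under 0.05, grey marks a gene not tested, and colours saturate at a log2 fold change of 3; NID1 is strongly higher in all 4 knockdown columns, ITGA3 and ITGA10 are higher with siINO80#2 and lower with siMCRS1, and the EPZ-6438 column holds no dot.

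With siMCRS1 the members rose less uniformly. In DMSO, 18 of the 53 tested members were higher and 6 lower than with NTG, beside 23.1% and 24.6% of all genes, with a member median of 0.29 (0.00 for all genes). In EPZ-6438, 19 were higher and 11 lower, beside 26.8% and 26.9%, with a median of 0.17 (0.01). The split depends on how the libraries are scaled. When each library was scaled to the same total, the median of all genes moved to −0.23 in both media. The DMSO counts became 14 higher and 8 lower, beside 13.2% and 35.6% of all genes, with a member median of 0.06. The EPZ-6438 counts became 16 higher and 13 lower, beside 16% and 37.2% of all genes, with a member median of −0.06. No called member changed sign under that scaling. In DMSO the increases were in 5 of 7 other matrix proteins, 5 of 22 collagens, 3 of 8 integrin alpha chains, 3 of 6 beta chains and 2 of 10 laminin chains.

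NID1 had the largest rise of the members in DMSO. It was at 1925 and 1870 normalized counts in DMSO NTG cells and at 9390, 10448 and 8680 with siMCRS1, and in EPZ-6438 it was at 2017, 2408 and 2784 with NTG and at 11585 and 10189 with siMCRS1. The siMCRS1 libraries lay above every NTG library in either medium (2.32, SE 0.14, adjusted p = 5.8e-06, and 2.19, SE 0.14, adjusted p = 3.5e-06). FN1 was at 193887 and 248649 and then at 474698, 594593 and 580163 in DMSO, and at 133841, 233435 and 184495 and then at 377567 and 499356 in EPZ-6438 (1.32, SE 0.24, adjusted p = 0.0012, and 1.28, SE 0.24, adjusted p = 0.0012). Its siMCRS1 libraries also stood above all NTG libraries.

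THBS1 was at 7269 and 7589 normalized counts and then at 29568, 35606 and 29902 with siMCRS1 in DMSO, and at 3921, 5531 and 4279 and then at 36133 and 44355 in EPZ-6438. The means were 4.27-fold and 8.79-fold those of NTG (2.09, SE 0.15, adjusted p = 1.1e-05, and 3.14, SE 0.15, adjusted p = 1.6e-06), the largest rise of a member in EPZ-6438. COL1A1 was at 223 and 270 and then at 750, 348 and 772 in DMSO, and at 58.2, 158 and 59.9 and then at 577 and 675 in EPZ-6438. Its siMCRS1 libraries were above NTG within each medium, with a wide spread in DMSO (1.25, SE 0.43, adjusted p = 0.034, and 2.91, SE 0.43, adjusted p = 0.00027). The DMSO call of COL1A1 was lost under 6 of the 19 alternatives, including leaving out DMSO NTG library 1 (1.12, adjusted p = 0.162).

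Basement membrane chains raised by siMCRS1 in both media included LAMB1, COL4A5 and COL4A6. LAMB1 was at 9298 and 10380 normalized counts and then at 16126, 19545 and 17887 in DMSO (0.86, SE 0.12, adjusted p = 0.00024), and rose by 0.99 in EPZ-6438. COL4A5 was at 921 and 1130 and then at 1974, 2182 and 2411 (1.10, SE 0.14, adjusted p = 0.00019), and COL4A6 at 231 and 212 and then at 364, 393 and 414 (0.82, SE 0.18, adjusted p = 0.0032), with 1.03 and 0.87 in EPZ-6438. The groups of these 3 genes did not overlap within a medium. COL4A1, with a mean of 8.17 over the drug libraries, was not tested. It was at 0.957 and 0.954 and then at 6.68, 7.71 and 2.86 in DMSO, and at 3.23, 1.42 and 5.26 and then at 30.4 and 22.2 in EPZ-6438. COL26A1 was at 214 and 153 and then at 654, 734 and 560 in DMSO (1.83, adjusted p = 4.5e-05) and rose by 1.71 in EPZ-6438. COL18A1 and FBLN1 rose by 0.56 and 0.60 in DMSO and by 0.39 and 0.46 in EPZ-6438, where both calls were lost without EPZ-6438 siMCRS1 library A (0.25 and 0.39), with equal totals (0.15 and 0.22) and under quantile normalization (0.10 and 0.23). LAMC1 passed in DMSO (0.35, adjusted p = 0.039), a call lost under 9 of the 19 alternatives with 0.01 under quantile normalization, and did not pass in EPZ-6438 (0.30, adjusted p = 0.066).

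Of the integrin alpha chains, 3 of 8 rose and 2 fell with siMCRS1 in DMSO, and 3 rose and 3 fell in EPZ-6438. Of the beta chains, 3 of 6 rose and 1 fell in DMSO, and 3 rose and 2 fell in EPZ-6438. Among all tested genes 23.1% rose and 24.6% fell in DMSO, and 26.8% and 26.9% in EPZ-6438. The falls were 25% of alpha and 16.7% of beta chains in DMSO, and 37.5% and 33.3% in EPZ-6438. ITGA2 was at 14565 and 22129 normalized counts and then at 39653, 53460 and 56418 with siMCRS1 in DMSO, and at 8364, 12271 and 10635 and then at 31956 and 48117 in EPZ-6438 (1.46, SE 0.24, adjusted p = 0.00069, and 1.93, SE 0.24, adjusted p = 9.2e-05). ITGA1 was at 1668 and 1999 and then at 2537, 4450 and 3777 in DMSO (0.94, SE 0.20, adjusted p = 0.0032), and ITGB5 at 5304 and 4675 and then at 9523, 9744 and 8477 (0.89, SE 0.15, adjusted p = 0.00064). None of these siMCRS1 libraries fell within the NTG range of its medium. ITGA6 (0.66 in DMSO, 0.83 in EPZ-6438) and ITGB1 (0.62 and 0.68) rose by less, and in DMSO both calls were lost without DMSO NTG library 1 (0.49 and 0.50) and under quantile normalization (0.31 and 0.32). ITGB8 was at 15.3 and 34.4 and then at 70.1, 83.7 and 87.4 in DMSO (1.75, adjusted p = 0.011), a call also lost without DMSO NTG library 1 (1.20). In EPZ-6438 the calls of ITGA6 and ITGB8 were each lost under at least 1 alternative, and that of ITGB1 was not.

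**Figure D5:**
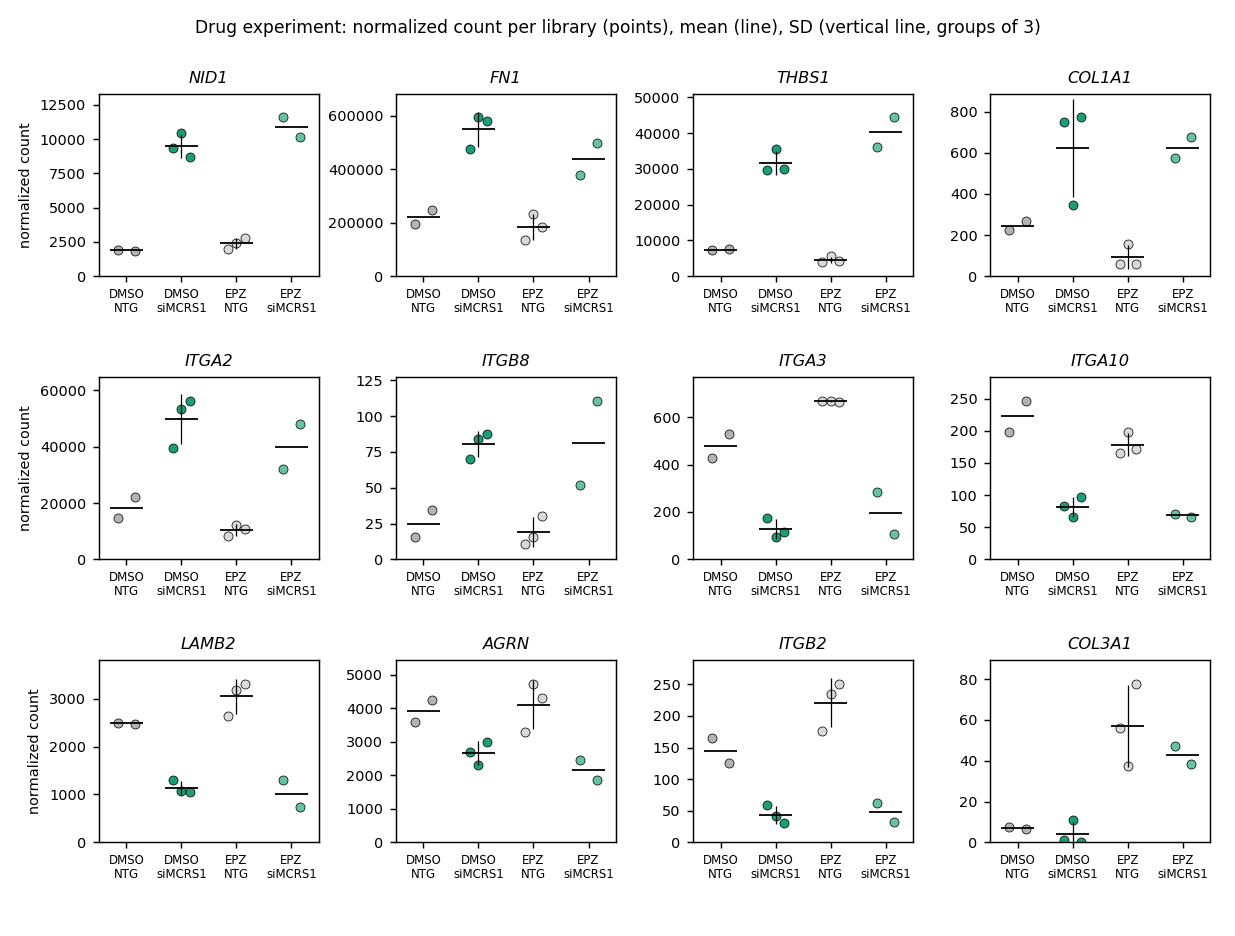
Normalized counts of 12 members in each library of the drug experiment, 1 panel per gene with a linear axis from 0; points are libraries, horizontal lines group means and vertical lines the SD in groups of 3, and groups are DMSO NTG, DMSO siMCRS1, EPZ-6438 NTG and EPZ-6438 siMCRS1. NID1, FN1, THBS1 and ITGA2 are higher and ITGA3, ITGA10, LAMB2 and ITGB2 lower with siMCRS1 in both media, and every EPZ-6438 library of COL3A1 lies above every DMSO library, a difference that did not pass the test.

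The 6 members lower with siMCRS1 in DMSO were ITGA3, ITGA10, LAMB2, AGRN, ITGB2 and COL5A2. ITGA3 was at 430 and 529 normalized counts and then at 172, 93.6 and 117 in DMSO, and at 668, 671 and 665 and then at 282 and 106 in EPZ-6438 (−1.94, SE 0.35, adjusted p = 0.0012, and −1.94, SE 0.35, adjusted p = 0.00093). ITGA10 was at 198 and 247 and then at 82.4, 66.1 and 97.4 in DMSO, and at 165, 198 and 171 and then at 70.4 and 66.6 in EPZ-6438 (−1.44, adjusted p = 0.00031, and −1.36, adjusted p = 0.00031). Both alpha chains were below NTG in all 5 siMCRS1 libraries. LAMB2 was at 2494 and 2477 and then at 1304, 1072 and 1046 in DMSO (−1.13, adjusted p = 0.0012) and fell by 1.64 on the log2 scale in EPZ-6438, and ITGB2 was at 166 and 125 and then at 59, 41.9 and 30.1 (−1.75, adjusted p = 0.0016) and fell by 2.24. AGRN was at 3602 and 4254 and then at 2709, 2302 and 3005 (−0.56, adjusted p = 0.024), a call lost without DMSO NTG library 3 (−0.44). COL5A2, a fibrillar chain, passed in DMSO only (−0.47, adjusted p = 0.038) and lost the call under 7 of the 19 alternatives, with −0.13 (adjusted p = 0.543) under quantile normalization and −0.37 without DMSO NTG library 1.

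In EPZ-6438 a further 6 members were called lower with siMCRS1: ITGB4 (−0.77), LAMA5 (−0.69), HSPG2 (−1.01), ITGA7 (−0.90), COL9A3 (−0.37) and COL10A1 (−1.74). COL10A1 was near the floor, at 9.70, 17.1 and 25.2 normalized counts with NTG and at 3.20 and 5.33 with siMCRS1, where 3 reads correspond to 2.40 and 2.66. Each of these calls was lost under at least 1 alternative, for example without EPZ-6438 siMCRS1 library B for ITGB4 (−0.54) and LAMA5 (−0.55). In DMSO the values were −0.56 for ITGB4, −0.45 for LAMA5 and −0.92 for HSPG2, and these did not pass. In a direct test of whether the effect of siMCRS1 differed between the media, no member passed (0% of all genes did).

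The INO80 and drug experiments share no libraries, so their calls can be counted against each other over the 49 members tested in both. Of the 30 members raised by siINO80#1, 16 were raised by siMCRS1 in DMSO, which is 53.3% of the 30 and 88.9% of the 18 raised by siMCRS1, where among all genes the shares were 65.1% and 58.0%. Of the 29 raised by siINO80#2, 14 were raised by siMCRS1 in DMSO (48.3% of the 29 and 77.8% of the 18), where among all genes the shares were 57.0% and 64.6%. Members were also called in opposite directions. AGRN and LAMB2 were higher with siINO80#1 and lower with siMCRS1 in DMSO (6.7% of 30 and 33.3% of 6, against 4.4% and 3.7% among all genes), and ITGA3 and ITGA10 were higher with siINO80#2 and lower with siMCRS1 in DMSO (6.9% of 29 and 33.3% of 6, against 5.1% and 5.5%). With siMCRS1 in EPZ-6438, 16 of the 30 raised by siINO80#1 were also raised (53.3% of 30 and 88.9% of 18, against 65.0% and 50.0% among all genes). Of the 29 raised by siINO80#2, 14 were also raised (48.3% of 29 and 77.8% of 18, against 57.4% and 56.1%). In the same medium, 6 of the 30 raised by siINO80#1 were lower, AGRN, COL9A3, HSPG2, ITGB4, LAMA5 and LAMB2 (20% of 30 and 60.0% of 10, against 6.3% and 4.9% among all genes). Of the 29 raised by siINO80#2, 5 were lower there, COL9A3, ITGA10, ITGA3, ITGA7 and ITGB4 (17.2% of 29 and 50.0% of 10, against 7.5% and 7.5%). COL1A1 was lower with siINO80#2 and higher with siMCRS1. Several of these calls were lost under an alternative, as given above for LAMB2, HSPG2, ITGB4, LAMA5 and COL1A1. ITGB2 was lower with siINO80#1, with siINO80#2 and with siMCRS1 in each medium. Between media, whose libraries are also separate, siMCRS1 raised 16 members in both (88.9% of 18 in DMSO and 84.2% of 19 in EPZ-6438, against 90.0% and 77.5% among all genes) and lowered 5 in both, AGRN, ITGA10, ITGA3, ITGB2 and LAMB2 (83.3% of 6 and 45.5% of 11, against 89.5% and 81.9%), and none was called in opposite directions. Each table was normalized separately, so levels were not compared between experiments.

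EPZ-6438 itself gave no called member. In NTG cells 0.384% of all genes differed from DMSO in either direction, and in siMCRS1 cells 0.0908% did. By limma 0 members passed in either setting, and 17 and 9 had an unadjusted p under 0.05 (2443 and 1305 of all genes), and edgeR on the recovered reads also called 0 in each. The member medians were 0.20 in NTG cells and 0.01 in siMCRS1 cells (−0.03 and −0.02 for all genes). COL3A1, a fibrillar collagen, was at 7.66 and 6.68 normalized counts with DMSO NTG, 56, 37.7 and 77.8 with EPZ-6438 NTG, 1.11, 11 and 0 with DMSO siMCRS1, and 47.2 and 38.2 with EPZ-6438 siMCRS1. Every EPZ-6438 library was above every DMSO library, yet the differences did not pass over all genes (2.77, SE 0.82, adjusted p = 0.13, and 3.89, SE 0.82, adjusted p = 0.13). They passed without DMSO siMCRS1 library 2, at adjusted p = 0.041 in NTG cells and 0.0141 in siMCRS1 cells.

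LAMA1 was at 17.2 and 19.1 normalized counts with DMSO NTG and at 97, 36.9 and 140 with EPZ-6438 NTG (2.07, SE 0.48, adjusted p = 0.088), SPARC at 911 and 1306 and then at 2278, 2180 and 2806 (1.14, adjusted p = 0.086), and COL9A2 at 379 and 407 and then at 841, 784 and 930 (1.11, SE 0.23, adjusted p = 0.072). In these 3 genes the NTG libraries did not overlap between media, and none passed in the main fit. Each passed under at least 1 alternative. Among these were quantile normalization for COL9A2 (adjusted p = 0.0372), leaving out EPZ-6438 NTG library 2 for LAMA1 (2.62, adjusted p = 0.033) and leaving out DMSO siMCRS1 library 2 for SPARC (adjusted p = 0.0489). COL1A1, ITGA2 and THBS1 had the opposite sign in NTG cells (−1.57, −0.80 and −0.71, adjusted p = 0.12, 0.14 and 0.08). Summed markers of fibroblasts and stellate cells, 8 genes with COL3A1 among the members, were at 724 to 1284 with DMSO NTG, 311 to 509 with DMSO siMCRS1, 1867 to 2972 with EPZ-6438 NTG and 637 to 767 with EPZ-6438 siMCRS1. ACTA2 made up most of these sums, and THY1 was at 0 in every DMSO library. Summed endothelial markers, of which KDR was at 0 in all drug-experiment libraries, were at 850 to 861, 351 to 458, 1064 to 1370 and 417 to 738. The part of these marker lists in the member results was not tested. In the test of the difference in siMCRS1 effect between media, 3 members had an unadjusted p under 0.05 (336 of all genes) and none passed: THBS1 (1.06, SE 0.22), COL1A1 (1.66, SE 0.61) and COL9A3 (−0.60, SE 0.15), and edgeR called 0.

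Genes that make, cut and anchor the matrix were counted by lists. The shares of all genes higher and lower, beside which these counts stand, were 20.7% and 20.8% with siINO80#1, 26.6% and 28.4% with siINO80#2, 23.1% and 24.6% with siMCRS1 in DMSO, and 26.8% and 26.9% in EPZ-6438. Of 20 tested genes of collagen synthesis and crosslinking, 14 rose and 0 fell with siINO80#1, and 12 rose and 2 fell with siINO80#2. With siMCRS1, 9 of 24 rose and 2 fell in DMSO and 10 rose and 1 fell in EPZ-6438. BMP1, which cleaves the procollagen end, rose by 0.83 and 1.29 with the INO80 siRNAs and by 1.24 with siMCRS1 in DMSO, and SERPINH1, the collagen chaperone, by 0.56, 0.67 and 0.76. LOXL2, a crosslinking enzyme, rose by 0.75, 1.44 and 0.74. P3H4, a component of a collagen-modifying complex, rose with the INO80 siRNAs (0.75 and 0.41) and fell with siMCRS1 (−1.01).

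Of 16 tested proteases and inhibitors 7 rose and 1 fell with siINO80#1 and 9 rose and 2 fell with siINO80#2, and of 19 tested in the drug experiment 11 rose and 0 fell with siMCRS1 in DMSO and 12 rose and 2 fell in EPZ-6438. MMP2 rose by 1.50, 2.62 and 3.16 and its activator MMP14 by 1.33, 2.06 and 1.76. Of 20 adhesion adaptors 10 rose and 5 fell with siINO80#1 and 10 rose and 4 fell with siINO80#2, and with siMCRS1 8 rose and 1 fell in DMSO and 10 rose and 4 fell in EPZ-6438. Talin 1 (TLN1), the link from integrins to actin, rose by 2.07 (adjusted p = 9.8e-08), 1.89 (adjusted p = 1.1e-07) and 1.80 (adjusted p = 3e-05), and zyxin (ZYX) by 1.68, 1.86 and 1.82. Of the other glycoproteins 7 of 17 rose and 2 fell with each INO80 siRNA, and 8 of 14 rose and 2 fell with siMCRS1 in DMSO and 7 rose and 1 fell in EPZ-6438. Biglycan (BGN) was among them, at 1.86, 1.93 and 2.11, while osteopontin (SPP1) fell with the INO80 siRNAs (−0.94 and −0.69) and rose with siMCRS1 (0.83). Other matrix receptors were mixed, with 4 of 12 higher and 1 lower with siINO80#1, 5 higher and 5 lower with siINO80#2, and 2 of 13 higher and 1 lower with siMCRS1 in DMSO and 4 higher and 2 lower in EPZ-6438. The hyaluronan receptor CD44 rose by 4.93 with siMCRS1 in DMSO. EPZ-6438 gave 0 calls in every list in both cell backgrounds.

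FN1, ITGA1, ITGB4, THBS1 and COL18A1 overlap the genes ATIC, PELO, GALK1, FSIP1 and SLC19A1 in the annotation. COL9A3, HSPG2 and COL10A1 overlap TCFL5, LDLRAD2 and NT5DC1, and ITGA7 overlaps BLOC1S1 and TMT1B. These are overlaps of gene spans, and shared exon sequence was not checked. Whether reads were assigned by strand is not given in the sources used here, and the part of such partners in these counts was not tested.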

How the data were processed

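RNA-seq was performed on HepG2 cells. Per the labels, the processing notes name kallisto and DESeq2, without versions, and the build GRCh38. The deposited signal is a normalized count per gene, that is, estimated reads rounded and divided by 1 size factor per library, and 100% of values were whole multiples of 1 step within 0.01 of a step. The study's own account of how these tables were made is not given in the sources used here.

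Values were tested as log2(value + 1) with limma 3.58.1 (lmFit, eBayes with trend; R 4.3.3) over genes with a mean of at least 10, all groups of a table in 1 fit, with Benjamini-Hochberg adjustment over all tested genes and a threshold of 0.05. The test is two-sided, and the added 1 shrinks the fold changes of low genes. edgeR 4.0.16 on the recovered reads was an alternative chosen after seeing the data. Recovered reads are not unique molecules, so the 3-read floors speak for counting error alone. Counts of libraries in the same group disagreed beyond Poisson noise in all 17 pairs (chi-square over its degrees of freedom 9.45 to 121), so no libraries were merged.

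Members, lists and named genes were chosen with earlier results of these data known. Genes were named if they passed the test at a mean of at least 50 (at most the 25 largest changes per table), if they encode chains that assemble together or 1 of the 8 matrix proteins, or, for non-members, from the lists. COL10A1, at a mean of 10.8 in the drug experiment, was named outside these rules, among the members called lower with siMCRS1 in EPZ-6438. BMP1, TLN1 and the other list genes named were chosen after their values were seen. Lengths are of GENCODE v44 canonical transcripts lifted to GRCh37, and promoter windows are from RefSeq.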

Additional observations from a re-analysis of the deposited data

How the results depend on the processing

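For each experiment 19 alternatives were run: pseudocounts of 0.1 and 5, minimum means of 1 and 50, equal totals, quantile normalization, only the groups compared, no trend, edgeR on the recovered reads, each library left out and, for the INO80 table, a replicate block. No called member changed direction under any of them. Calls held under every alternative for 27 of 33 members with siINO80#1, 27 of 31 with siINO80#2, 13 of 18 between the siRNAs, and 16 of 24 and 18 of 30 with siMCRS1 in DMSO and EPZ-6438. With 1 library left out, the members called ranged from 27 to 35, 28 to 32, 14 to 21, 18 to 26 and 24 to 30, respectively. The calls over all genes moved too, from 4719 to 6920, 6841 to 7721, 1948 to 3481, 4604 to 7030 and 5070 to 7600, in the same order. For EPZ-6438 against DMSO in NTG cells, where 0 were called, quantile normalization gave 1 (COL9A2), only the groups compared gave 3 (COL3A1, COL9A2, SPARC), and leaving out a library gave 0 to 2. Over all genes these settings gave 85, 128 and 2 to 71 calls. In siMCRS1 cells leaving out a library gave 0 to 1, beside 0 to 26 over all genes. The cause was not tested. edgeR, chosen after seeing the data, called 29 higher and 2 lower with siINO80#1, 29 and 2 with siINO80#2, and 18 and 7 and 19 and 12 with siMCRS1. Its shares of all genes higher and lower were 20.8% and 20.9%, 27.7% and 27.5%, 22.4% and 25.1%, and 25.8% and 28.1%, in the same order. With the letters A to C as a replicate block, 32, 30 and 19 members were called in the 3 INO80 comparisons. The block raised the calls over all genes from 5833 to 6327, from 7725 to 8127 and from 3096 to 3590. Deviations of libraries from their group means correlated at 0.10 on average between libraries of the same letter in different groups (−0.08 to 0.26, 9 pairs). Between libraries of other letters the mean was −0.05 (−0.25 to 0.10, 18 pairs). The same-letter mean was higher but the ranges overlapped, so the letters do not establish a pairing. For the drug experiment no paired analysis was possible because the labels give letters while most columns carry numbers, so those columns could be matched to a group and not to a lettered library. The untested members had means under 10, and the part of sequencing depth in this was not tested.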
